A study of Homo sapiens with 12 samples.

Results

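The comparison concerned SNU398, an established human hepatocellular carcinoma line, and asked how transcripts differed between cells given a combination treatment and cells given 5-Aza-CdR alone. All samples titled SNU398 were taken, which is 4 of the 12 samples of the series, and every gene symbol with a value in them, which is 19402 of 20545. There were 2 groups of 2 samples, SNU398 under 5-Aza-CdR and SNU398 under the combination, numbered 1 and 2 in each group, and the samples of the same number were compared as a pair. The other samples were HL60 leukaemia cells and HCT116 colon carcinoma cells under the same treatments. RNA was measured on Illumina bead arrays, and values are log2 expression, 1 per gene symbol. No untreated sample was analysed here, so all differences are the combination minus 5-Aza-CdR alone and none is a response to 5-Aza-CdR itself. The combination is taken to contain 5-Aza-CdR, and the labels name neither its other component nor a dose or a time. Nor do they state that the samples of 1 treatment were grown as separate cultures, so every p-value reflects the spread among these 4 samples alone, part or all of which may be technical.

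5-Aza-CdR, also called decitabine, is a deoxycytidine analogue that is built into DNA, where it traps DNA methyltransferases, so that cytosine methylation is lost as cells divide. Loss of methylation is known to switch on genes that methylation keeps silent in somatic cells, above all germline and cancer-testis genes. It can also let endogenous retroviral sequences be transcribed into double-stranded RNA, which cytosolic sensors read as viral and answer with interferon and interferon-stimulated genes.

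The SNU398 samples carried few hepatocyte transcripts. ALB, the albumin of hepatocytes, lay between 8.17 and 8.27 in the 4 samples, below the median of all genes in each of them, which was 8.53 to 8.57. APOA1 and SERPINA1, both secreted by hepatocytes, lay between 7.66 and 7.92 and between 7.67 and 7.76. GPC3, a glypican of hepatocellular carcinoma, lay between 9.38 and 9.52, against 7.45 to 7.64 in HL60. Of the epithelial markers, EPCAM lay between 10.90 and 11.47, while KRT8, KRT18, KRT19 and CDH1 all lay between 7.56 and 8.01. VIM and CDH2, the vimentin and N-cadherin of mesenchymal cells, lay between 15.22 and 15.55 and between 12.05 and 12.21. FN1, also a mesenchymal marker, lay only between 7.75 and 7.89, and ZEB1 was not measured. The blood cell markers PTPRC, MPO, CD3D and SPI1 did not exceed 7.84 in any SNU398 sample. The label of liver origin was therefore borne out by GPC3 but not by the secreted liver proteins, and AFP, TTR, APOB and HNF4A were not measured here.

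With the combination, interferon-stimulated and germline transcripts led the genes that were higher than with 5-Aza-CdR alone, and a group of related TRIM genes led those that were lower. A fit in limma with the replicate number as a block called 472 genes higher and 238 lower of 19402 at an adjusted p under 0.05 (Benjamini-Hochberg over all genes, two-sided), which is 2.43% and 1.23%, or 3.66% together. Differences were mostly small. The median size was 0.42 on the log2 scale among the genes called higher and 0.38 among those called lower, the smallest called difference was 0.31, and 8 genes rose and 7 fell by at least 2-fold. In 7 genes the combination sample was at least 2-fold higher in both pairs (0.0361% of genes), namely REC8, IFI27, MX1, APOE, ADAD2, PARP12 and BTBD6. In 3 genes it was at least 2-fold lower in both (0.0155%), namely TRIM48, SPRYD5 and LOC729384. MX1 started from low signal under 5-Aza-CdR, where the array may not resolve a level. Both combination samples lay above both 5-Aza-CdR samples in 352 of the 472 genes called higher, against 12.6% of all genes, and below both in 142 of the 238 called lower, against 12.1%. Because calling used these same samples, that agreement is a description of the called genes and no further evidence.

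These calls rest on the pairing. Without the replicate block the fit to the 4 SNU398 samples called 0 genes in limma (388 at an unadjusted p under 0.05). A fit that shared 1 spread among the 6 pairs of the 3 lines also called 0 (429), against 3162 at that unadjusted limit in the paired fit of SNU398. Fits that left out 1 sample had no replicate block, and fits that left out a pair shared the spread of the 3 lines. Both models already called 0 genes with nothing left out, so their calls cannot show dependence on 1 sample or pair. Without Combination replicate 1, and without the block, the sign turned for STAT2, TYK2, CBX1, MXD4, SPINT2, DUSP6, TRIM8 and LOC644063. It also turned for NOTUM and HSPE1 without 5-Aza-CdR replicate 1. With 1 residual degree of freedom per gene, the paired fit drew most of its spread from all genes together (13.95 prior degrees of freedom), so standard errors were close to 0.08 for most genes and the order of p largely followed the size of the difference. Across the 19402 genes the differences of the pairs correlated with a Pearson r of 0.444, a description over genes that share the same 4 arrays. Called genes were rare where the array signal was low: among the 4851 genes of lowest mean log2, from 7.32 to 7.90, 9 were called higher and 1 lower, against 182 and 128 among the 4851 of highest mean log2, from 9.98 to 15.92.

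**Figure D1:**
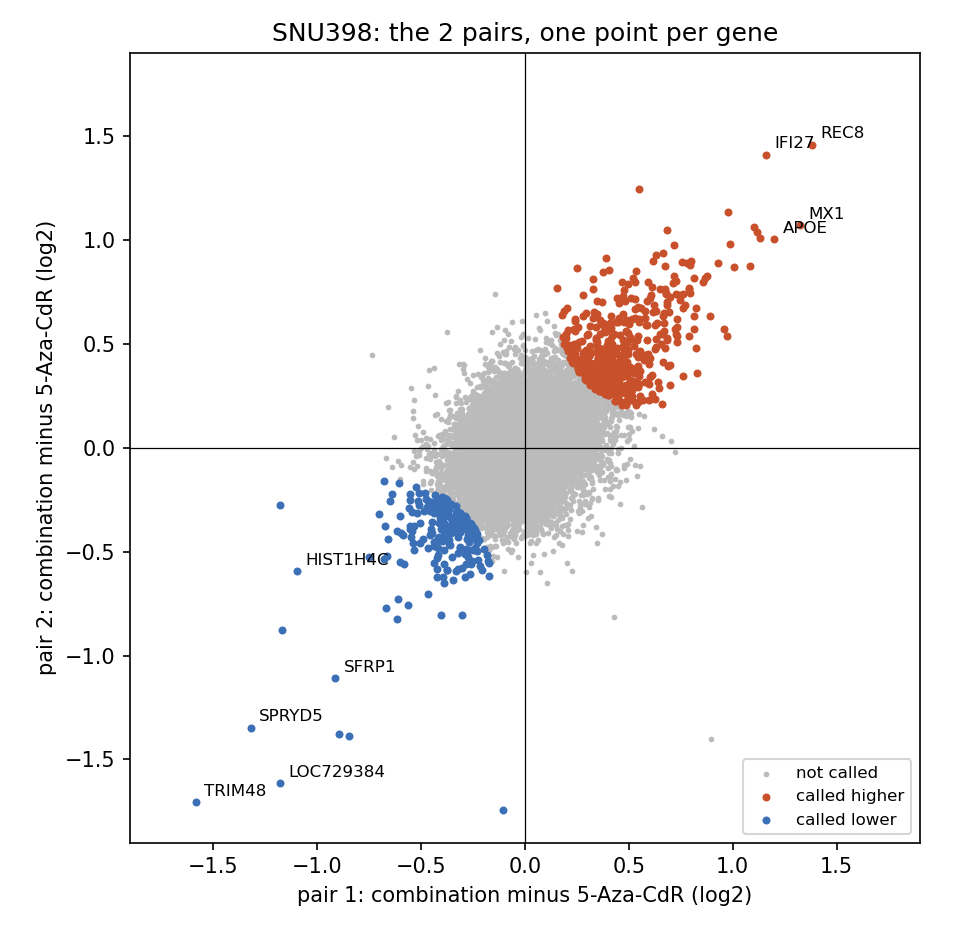
Difference of the combination from 5-Aza-CdR alone (log2) in pair 1 on the horizontal axis and in pair 2 on the vertical axis, one point per gene for 19402 genes, with genes called higher in red and lower in blue. Most genes lie within about 0.5 of 0 in both pairs, while REC8, IFI27, MX1, APOE, TRIM48, LOC729384 and SPRYD5 lie beyond 1 or below -1 in both.

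REC8 rose most. REC8 is the kleisin subunit of the cohesin that holds sister chromatids together in meiosis. It read 9.87 and 9.34 under 5-Aza-CdR (replicates 1 and 2) and 11.25 and 10.80 under the combination, a 2.68-fold rise (log2 1.42 ± 0.08 SE, n = 2 pairs, limma adjusted p = 2.4e-07). Both combination samples lay above both 5-Aza-CdR samples, although replicate 2 was the lower of each group. ADAD2, a testis protein related to RNA-editing adenosine deaminases, read 8.79 and 8.35 against 9.89 and 9.41, a rise of 1.08 ± 0.08. RHOXF1, a homeobox gene of reproductive tissues on chromosome X, read 8.99 and 8.90 against 9.98 and 9.88, a rise of 0.98 ± 0.08 that was the same in both pairs. DPEP3, a dipeptidase family member known from testis, read 10.92 and 10.48 against 12.01 and 11.35, a rise of 0.98 ± 0.09. In each of these genes the groups did not overlap. HDGFL1 rose by 0.91 ± 0.08, from 9.02 in both 5-Aza-CdR samples to 9.95 and 9.91.

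Further germline genes rose by less. H2AFB1, an H2A variant of male germ cells, read 10.10 and 10.12 against 10.97 and 10.95 and rose by 0.85 ± 0.08. CTCFL, a germline relative of CTCF also called BORIS, read 11.57 and 11.56 against 12.37 and 12.45 and rose by 0.85 ± 0.08. STRA8, which licenses entry into meiosis in response to retinoic acid, read 7.91 and 7.81 against 8.78 and 8.62 and rose by 0.84 ± 0.08. The groups were apart in all 3, and the samples of a group differed by at most 0.16. HORMAD1, a protein of the meiotic chromosome axis, rose by 0.80 ± 0.09, TKTL1, a transketolase-like cancer-testis gene, by 0.78 ± 0.09, and OOEP, known from oocytes and early embryos, by 0.67 ± 0.09.

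Of the meiosis and germline regulators, 12 of 53 measured members were called higher (22.6%, against 2.43% of all genes) and 0 lower, with a median difference of 0.11 against -0.00 over all genes tested. Of the cancer-testis antigens, 14 of 77 were called higher (18.2%) and 2 lower, with a median of 0.06. Besides CTCFL and TKTL1 these included TEX101, a germ-cell surface protein, which rose by 0.65 ± 0.08, XAGE3 by 0.58 ± 0.08, PAGE2 by 0.52 ± 0.09, MAGEA8 by 0.52 ± 0.08, PAGE1 by 0.47 ± 0.08 and PASD1 by 0.44 ± 0.10. The 2 lower members, named after their values were seen, were TEX15, a factor of transposon silencing in male germ cells of mice, which fell by 0.43, and FMR1NB, which fell by 0.41. In both germline lists together most measured members did not pass the test, and the lists were chosen with earlier results of these data known, so the counts describe these samples only.

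Promoters of the germline genes that rose most are shown with each CG dinucleotide in capitals, because CG is the site of DNA methylation. They are RefSeq sequences of build GRCh38.p14, 300 bases from 250 before to 50 after the annotated start, written on the strand of the gene. REC8 lies at chr14:24171830-24172129 on the plus strand, and ADAD2 at chr16:84190907-84191206 on the plus strand.
REC8: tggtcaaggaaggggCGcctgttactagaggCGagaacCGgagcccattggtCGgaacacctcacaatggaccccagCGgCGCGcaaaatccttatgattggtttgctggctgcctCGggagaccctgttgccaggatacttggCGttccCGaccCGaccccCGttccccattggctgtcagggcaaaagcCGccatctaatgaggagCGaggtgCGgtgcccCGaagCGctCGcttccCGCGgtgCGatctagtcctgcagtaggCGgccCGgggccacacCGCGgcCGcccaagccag
ADAD2: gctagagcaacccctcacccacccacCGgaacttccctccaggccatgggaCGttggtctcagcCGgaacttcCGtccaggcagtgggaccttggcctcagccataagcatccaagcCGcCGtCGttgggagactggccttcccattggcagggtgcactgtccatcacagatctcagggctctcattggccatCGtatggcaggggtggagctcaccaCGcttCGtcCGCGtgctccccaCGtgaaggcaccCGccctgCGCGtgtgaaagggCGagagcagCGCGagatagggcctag
The REC8 window holds 26 CG and the ADAD2 window 19, while that of RHOXF1 holds 6 and that of DPEP3 24. Counted in the window listed first for a gene, the median was 25 over the 11637 tested genes with a promoter used here, 22 over 346 genes called higher and 26 over 119 called lower. It was 17 over the 11 germline regulators called higher that have a promoter in the table, against 23 over the 47 measured ones, and 13 over both the 13 called cancer-testis genes and the 60 measured ones. No methylation was measured in the files used here.

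Among interferon-stimulated genes the largest rises were those of IFI27, MX1, PARP12 and IFIT1. IFI27, a small mitochondrial protein induced by interferon, read 8.32 and 8.20 under 5-Aza-CdR and 9.48 and 9.61 under the combination, a 2.44-fold rise (log2 1.29 ± 0.09 SE, n = 2 pairs, limma adjusted p = 1.3e-06). MX1, a dynamin-like GTPase that blocks viral ribonucleoproteins, read 7.48 and 7.57 against 8.80 and 8.64, a rise of 1.20 ± 0.09. Both 5-Aza-CdR values of MX1 lie in the range of the 4851 genes of lowest signal, where the array may not resolve a level. The size of its rise, at least 2-fold in both pairs as read, is therefore uncertain, and no exact fold is given. PARP12, a mono-ADP-ribosyltransferase with antiviral activity, read 9.15 and 8.86 against 10.27 and 9.90, a rise of 1.08 ± 0.08. IFIT1, which binds capped viral RNA that lacks host methylation marks, read 7.99 and 8.14 against 8.96 and 9.27, a rise of 1.06 ± 0.08. The groups were apart in all 4 genes.

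In the interferon response list 10 of 56 measured members were called higher (17.9%, against 2.43% of all genes) and 0 lower, with a median of 0.10. The others among the 8 largest were ISG15, a ubiquitin-like modifier, which rose by 0.63 ± 0.10, PRIC285 (HELZ2), an interferon-induced helicase, by 0.59 ± 0.08, IFITM3, which restricts virus entry at endosomes, by 0.58 ± 0.09, and IFIT2 by 0.55 ± 0.08. ISG15 read 11.13 and 10.76 against 11.54 and 11.61, and its difference was 0.40 in pair 1 and 0.85 in pair 2. PRIC285 read 9.28 and 8.44 against 9.86 and 9.03, so its groups overlapped and the rise showed only within pairs. The combination samples lay above both 5-Aza-CdR samples in 24 of the 56 members and below both in 3, against 12.6% and 12.1% of all genes. Of the 56 members, 25 were among the 4851 genes of lowest signal, where 0 were called in limma, and 31 lay above, where 10 were. OAS1, which makes the second messenger of RNase L, stayed at 7.73 to 7.75 in all 4 samples, and IFI6 read 9.87 and 9.47 against 10.13 and 9.77, with an adjusted p = 0.078 in limma; IFI6 was picked after its values were seen.

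Interferon-stimulated genes are switched on through the interferon-stimulated response element, bound by a complex that includes STAT2 and IRF9, and its core was searched as GAAANNGAAA on both strands. Promoters of the 4 leading interferon genes are shown with each match in capitals, which appears as TTTCNNTTTC where it lies on the opposite strand. IFI27 is shown at chr14:94110565-94110864 on the plus strand, MX1 at chr21:41420308-41420607 on the plus strand, PARP12 at chr7:140062902-140063201 on the minus strand and IFIT1 at chr10:89392373-89392672 on the plus strand.
IFI27: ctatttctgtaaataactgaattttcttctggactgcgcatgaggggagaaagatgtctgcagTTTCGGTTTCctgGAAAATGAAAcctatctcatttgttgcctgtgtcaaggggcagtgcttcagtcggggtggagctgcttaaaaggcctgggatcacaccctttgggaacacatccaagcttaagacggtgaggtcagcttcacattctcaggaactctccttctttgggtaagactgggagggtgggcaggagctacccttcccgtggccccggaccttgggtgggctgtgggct
MX1: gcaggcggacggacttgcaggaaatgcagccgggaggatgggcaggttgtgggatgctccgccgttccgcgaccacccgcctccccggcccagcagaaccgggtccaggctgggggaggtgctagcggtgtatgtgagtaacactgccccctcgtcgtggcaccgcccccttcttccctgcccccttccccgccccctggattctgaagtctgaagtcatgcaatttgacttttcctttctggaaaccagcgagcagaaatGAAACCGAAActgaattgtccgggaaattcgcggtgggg
PARP12: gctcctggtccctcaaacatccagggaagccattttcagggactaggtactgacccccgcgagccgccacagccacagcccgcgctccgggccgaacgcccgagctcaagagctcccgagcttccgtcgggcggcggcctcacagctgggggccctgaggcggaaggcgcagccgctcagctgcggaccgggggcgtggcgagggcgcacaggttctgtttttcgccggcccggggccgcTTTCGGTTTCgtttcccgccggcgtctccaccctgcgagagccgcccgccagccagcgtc
IFIT1: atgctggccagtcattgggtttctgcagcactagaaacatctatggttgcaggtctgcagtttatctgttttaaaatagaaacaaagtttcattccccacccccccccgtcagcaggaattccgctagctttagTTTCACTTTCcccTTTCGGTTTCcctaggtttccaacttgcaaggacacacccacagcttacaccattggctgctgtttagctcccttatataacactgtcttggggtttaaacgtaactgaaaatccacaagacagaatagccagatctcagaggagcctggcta
All 4 windows hold the letters of the core, and in IFI27 and IFIT1 they occur at 2 places. IFI27 and MX1 have further annotated starts that are not shown, 1 of which, in MX1, lacks these letters. The core was found in 3.57% of all 35116 promoter windows and, in any window of a gene, for 4.12% of the 11637 tested genes with a promoter used here. It was found for 29 of 44 interferon response genes (65.9%), for 6 of the 8 called higher and for 23 of the 36 not called. Over all genes it was found for 18 of the 346 called higher (5.20%) and 4 of the 119 called lower (3.36%), and for 0 of the 11 germline regulators called higher. The windows shown differ in CG content: MX1 holds 20, PARP12 35, IFI27 6 and IFIT1 4. A match describes the letters of the window and is no measured binding.

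Some genes of the signal that leads to this element were also higher. IRF9, the DNA-binding subunit of the complex, read 10.98 and 10.75 under 5-Aza-CdR against 11.46 and 11.48 under the combination and rose by 0.60 ± 0.09 (limma adjusted p = 0.00089). IRF7, which amplifies interferon production, read 8.47 and 8.13 against 8.92 and 8.83 and rose by 0.57 ± 0.09. The groups were apart in both genes. STAT2 (0.34 ± 0.08), the kinase TYK2 (0.34 ± 0.08) and the receptor chain IL10RB (0.34 ± 0.08) rose by less, and STAT2 and TYK2 overlapped between the groups because replicate 1 was higher than replicate 2 in each. In all, 6 of 26 receptor, JAK-STAT and IRF genes were called higher (23.1%, against 2.43% of all genes) and 0 lower. Their median was 0.05, and 16 of the 26 differences were above 0. Of 21 sensors of double-stranded RNA and DNA and their adaptors, 2 were called higher (9.52%). They were IFIH1 (MDA5), by 0.35 ± 0.08, and TRIM25, by 0.32 ± 0.08. IFIH1 read 10.89 and 11.50 against 11.21 and 11.89, so its groups overlapped. TRIM25 also counts in the interferon response and TRIM lists. TAP1, the peptide transporter of class I antigen presentation, was the 1 member called of 20 and rose by 0.50 ± 0.08. HLA-DMA, which loads peptides on class II, was the 1 called of 12 and rose by 0.71 ± 0.08. With 2.43% of all genes called higher, 1 call in a list of 20 or 12 describes that gene and not its list. Of 32 NF-kappaB and inflammatory cytokine genes 0 were called in limma, in either direction, against 3.66% of all genes. Of these 32, 16 were among the 4851 genes of lowest signal, where calls were rare.

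IRF9 and REC8 are direct neighbours on chromosome 14 among the genes tested here, in the order of RefSeq starts. Around them RNF31 differed by 0.28 ± 0.10 and PSME2 by 0.28 ± 0.09 on one side and IPO4 by 0.14 ± 0.08 on the other, and none of the 3 was called. Counting related copies, such as those of TSPY on chromosome Y, there were 29 adjacent pairs called in the same direction, 26 of them higher. No share over all adjacent pairs was taken, so the 29 pairs describe the called genes only. Among them, picked after the values were seen, were DPPA2 and DPPA4, pluripotency-associated genes on chromosome 3 that rose by 0.34 ± 0.08 and 0.44 ± 0.09, and RHOXF1 with RHOXF2, which rose by 0.40 ± 0.08.

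**Figure D2:**
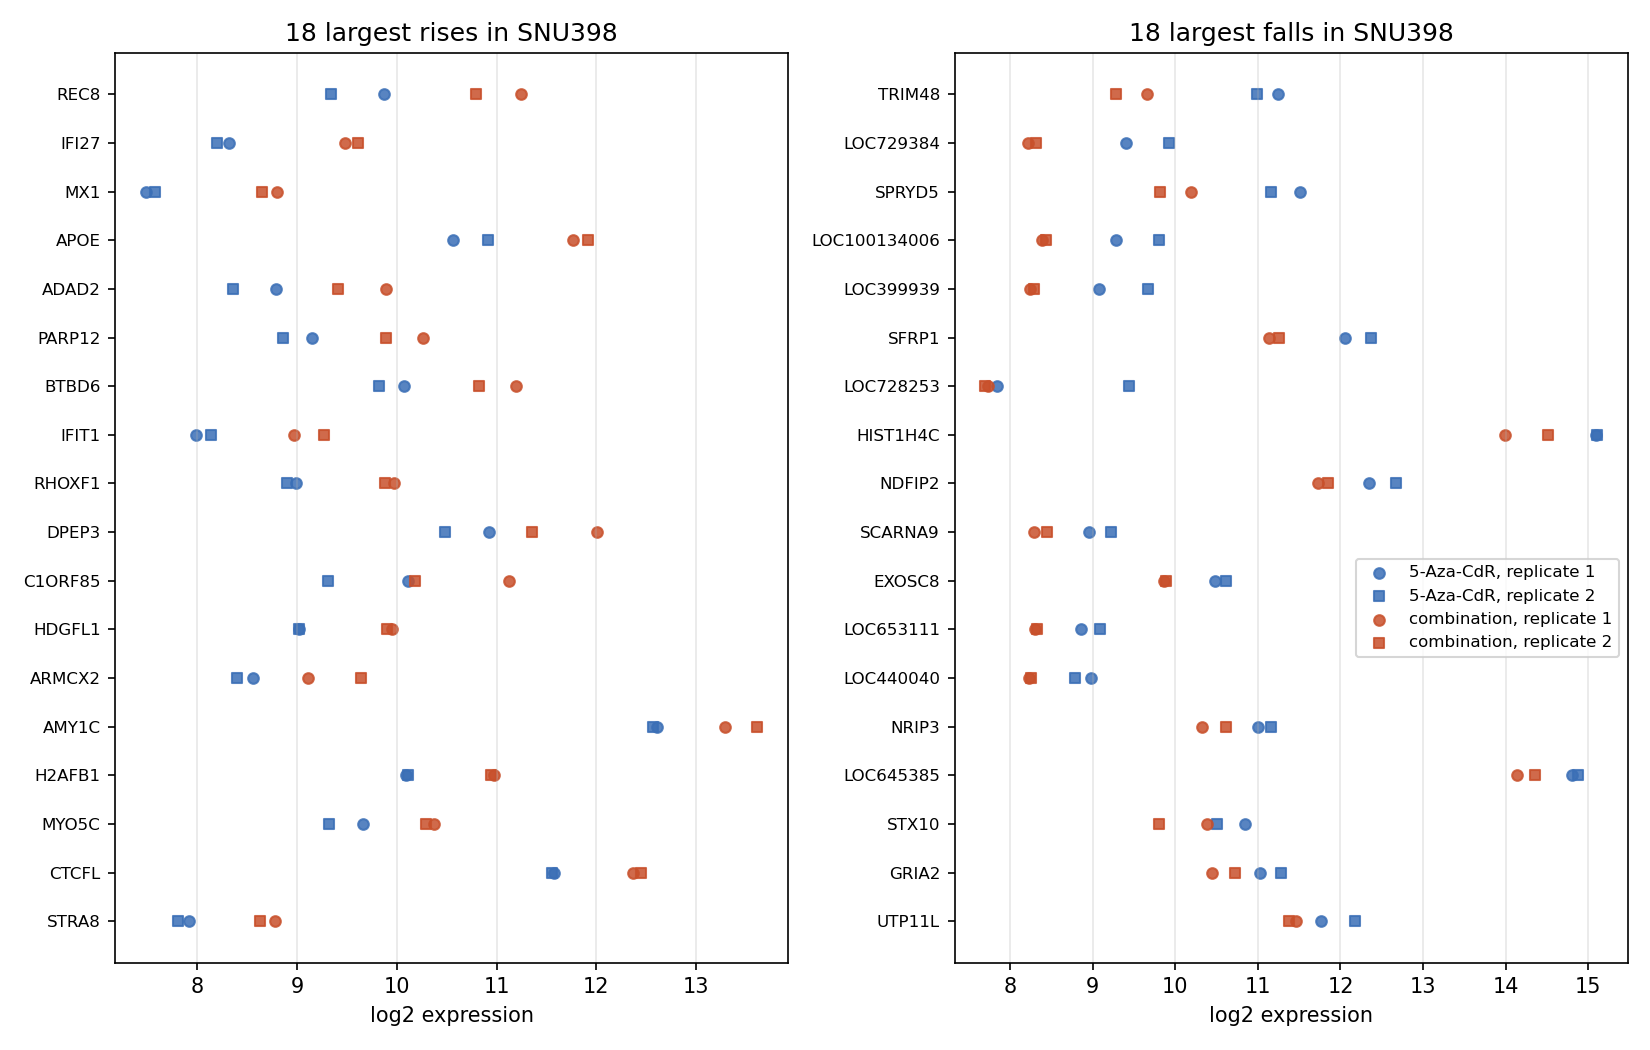
Log2 expression in the 4 SNU398 samples (horizontal axis) of the 18 genes that rose most and the 18 that fell most among called genes whose groups do not overlap, with 5-Aza-CdR in blue, the combination in red, replicate 1 as circles and replicate 2 as squares. REC8 moves from 9.34 and 9.87 to 10.80 and 11.25, and LOC728253 stands out because 1 5-Aza-CdR sample, at 9.44, lies far from the other 3, at 7.70 to 7.84.

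Other large rises came from genes outside these groups. APOE, the apolipoprotein of lipid transport, read 10.57 and 10.92 against 11.77 and 11.92, a 2.15-fold rise (1.10 ± 0.08 SE, n = 2 pairs, limma adjusted p = 2.9e-06). BTBD6, a substrate adaptor of cullin ubiquitin ligases, read 10.07 and 9.82 against 11.20 and 10.83 and rose by 1.07 ± 0.08. Of 31 apolipoproteins and hepatocyte markers 3 were called higher (9.68%, against 2.43% of all genes) and 0 lower, with a median of 0.02. Besides APOE these were TDO2, the tryptophan dioxygenase of liver, which rose by 0.72 ± 0.08, and ASGR1, the hepatocyte asialoglycoprotein receptor, by 0.48 ± 0.08. C1ORF85 (GLMP), a lysosomal membrane protein, rose by 0.94 ± 0.08, ARMCX2 by 0.90 ± 0.12, AMY1C, a salivary amylase whose copies a probe may not tell apart, by 0.86 ± 0.09, MYO5C, an unconventional myosin, by 0.85 ± 0.09, and LTBR, the lymphotoxin beta receptor, by 0.83 ± 0.08. ARMCX2 differed by 0.55 in pair 1 and 1.24 in pair 2, the widest gap between pairs among these genes.

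Antioxidant and iron genes included several rises. GSTP1, a glutathione transferase often silenced by promoter methylation in tumours, read 12.01 and 11.55 against 12.69 and 12.23 and rose by 0.69 ± 0.08. NQO1, a quinone reductase, read 10.96 and 10.93 against 11.69 and 11.47 and rose by 0.64 ± 0.08, and HMOX1, the heme oxygenase, rose by 0.58 ± 0.08, with 0.63 in pair 1 and 0.52 in pair 2. The groups did not overlap in any of these genes. FTH1 and FTL, the ferritin chains that store iron, rose by 0.42 ± 0.08 and 0.33 ± 0.08, while TFRC, the transferrin receptor that brings iron in, fell by 0.36. Of 39 NRF2 antioxidant targets 6 were called higher and 0 lower (median 0.08), and of 22 genes of ascorbate transport and iron handling 4 higher and 1 lower (median -0.01). HMOX1, FTH1 and FTL count in both lists. Over all genes 2.43% were called higher and 1.23% lower. The ascorbate transporter SLC23A2 differed by -0.01 ± 0.08 and SLC2A1, which carries glucose and dehydroascorbate, by -0.10 ± 0.08, and neither was called. Of 14 metallothionein and zinc genes 0 were called in limma. PYCARD, an inflammasome adaptor also known for promoter methylation, rose by 0.69 ± 0.08, and with GSTP1 and SPINT2 it made up the 3 of 36 such tumour suppressors called higher, against 0 lower (median 0.04).

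TRIM48 fell most of all genes. It read 11.24 and 10.99 under 5-Aza-CdR and 9.66 and 9.28 under the combination, a 3.13-fold fall (log2 -1.64 ± 0.08 SE, n = 2 pairs, limma adjusted p = 6.8e-08). LOC729384, now TRIM49D2, read 9.40 and 9.93 against 8.22 and 8.31, a difference of -1.40 ± 0.10. SPRYD5, now TRIM51, read 11.51 and 11.16 against 10.19 and 9.81, a difference of -1.33 ± 0.08. These genes belong to a family of primate tripartite-motif copies on chromosome 11 whose products are little studied, and a probe may not tell the copies apart. Grouped after their values were seen, 8 symbols of the TRIM48, TRIM49, TRIM51, TRIM53, TRIM64 and TRIM77 copies were measured and 6 were called lower, the other 3 being LOC399939 (TRIM49D1) at -1.12 ± 0.11, LOC340970 (TRIM53CP) at -0.40 ± 0.08 and TRIM53 at -0.33 ± 0.08. LOC399940 (TRIM51EP) and LOC642446 (TRIM64B) differed by -0.05 ± 0.08 and -0.01 ± 0.08 and lay between 7.70 and 8.27 in all samples. In the list of 55 TRIM genes as a whole, TRIM25 and TRIM8 were the 2 called higher (3.64%, against 2.43% of all genes). In that list 3 were called lower (5.45%, against 1.23%), and the median was 0.04. The promoters of both leading members are shown in GRCh38.p14, with their longest common run of 19 bases in capitals: TRIM48 at chr11:55261905-55262204 on the plus strand and SPRYD5 at chr11:55883047-55883346 on the plus strand.
TRIM48: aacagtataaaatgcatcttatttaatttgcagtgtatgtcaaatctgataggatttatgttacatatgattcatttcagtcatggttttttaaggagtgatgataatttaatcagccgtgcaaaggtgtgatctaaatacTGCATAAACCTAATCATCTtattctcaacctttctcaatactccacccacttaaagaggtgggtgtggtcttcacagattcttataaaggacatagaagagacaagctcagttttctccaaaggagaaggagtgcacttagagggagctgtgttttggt
SPRYD5: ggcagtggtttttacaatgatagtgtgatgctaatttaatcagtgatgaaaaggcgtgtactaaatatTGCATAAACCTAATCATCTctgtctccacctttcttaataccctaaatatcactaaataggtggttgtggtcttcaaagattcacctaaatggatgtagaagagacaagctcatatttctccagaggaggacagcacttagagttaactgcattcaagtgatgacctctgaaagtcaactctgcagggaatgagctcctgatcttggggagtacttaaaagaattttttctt
Each window holds 1 CG, against a median of 25 over the tested genes.

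**Figure D3:**
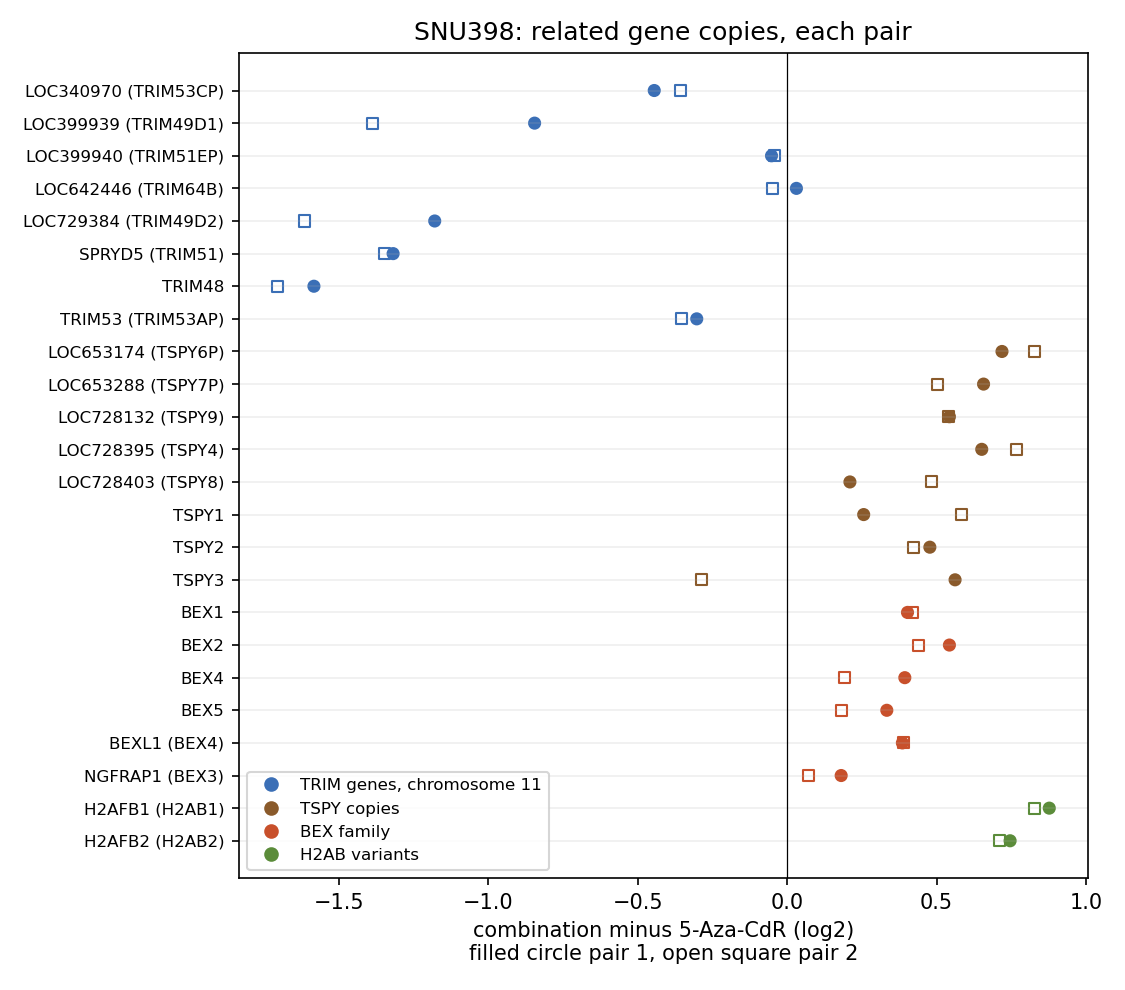
Difference of the combination from 5-Aza-CdR alone (log2, horizontal axis) in each pair for related gene copies, with filled circles for pair 1, open squares for pair 2 and one colour per family. Of the chromosome 11 TRIM copies 6 of 8 lie clearly below 0 in both pairs, and all TSPY, BEX and H2AB copies lie above 0 in both except TSPY3, at 0.56 and -0.29.

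SFRP1, a secreted antagonist of Wnt signalling, read 12.05 and 12.37 against 11.14 and 11.26, a 2.02-fold fall (log2 -1.01 ± 0.08, adjusted p = 7.4e-06 in limma). It and NOTUM, which rose by 0.35 ± 0.09, were the called members among 13 Wnt antagonist genes. HIST1H4C, a replication-dependent histone H4 gene, read 15.09 and 15.10 under 5-Aza-CdR and at most 14.51 under the combination, a difference of -0.85 ± 0.10. The fall was larger in pair 1, at -1.10, than in pair 2, at -0.59. NDFIP2, an adaptor of NEDD4-type ubiquitin ligases, differed by -0.72 ± 0.09, and SCARNA9, a small Cajal body RNA that guides modification of spliceosomal RNA, by -0.72 ± 0.08. EXOSC8, a core subunit of the RNA exosome, differed by -0.67 ± 0.08, and EXOSC3, a cap subunit of the same complex, by -0.34 ± 0.09. Those were the 2 of 26 RNA exosome and small nuclear RNA processing genes called lower, against 0 higher (median -0.08). Over all genes 1.23% were called lower and 2.43% higher. NRIP3, STX10, GRIA2, UTP11L and EIF2C2 (AGO2, the slicing Argonaute) fell by between 0.61 and 0.51. LOC728253 differed by -0.92 ± 0.23, but by only -0.11 in pair 1 against -1.74 in pair 2, so its value was set by 5-Aza-CdR replicate 2.

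Genes of cell division were lower by small amounts. CENPF, a kinetochore protein of mitosis, read 10.32 and 9.80 against 9.72 and 9.47, a difference of -0.46 ± 0.09. PTTG1, the securin that holds back chromatid separation, read 12.18 and 12.12 against 11.76 and 11.66, a difference of -0.44 ± 0.08. SPC24, E2F3, CCNA2, CENPN, KIF20A and DLGAP5 fell by between 0.42 and 0.35. In all, 10 of 67 mitotic and cell cycle genes were called lower (14.9%, against 1.23% of all genes) and 0 higher, with a median of -0.12, and 14 of the 67 differences were above 0. Both combination samples lay below both 5-Aza-CdR samples in 24 of the 67 and above both in 1. Of 49 genes of DNA replication and nucleotide supply, 4 were called lower and 0 higher, with a median of -0.10. They were TYMS, thymidylate synthase, at -0.43 ± 0.09, the helicase subunit MCM4 at -0.39 ± 0.08, RRM2, a ribonucleotide reductase subunit, at -0.38 ± 0.08, and the flap endonuclease FEN1 at -0.35 ± 0.08. No cell number or cycle phase was measured, and in a culture fewer dividing cells and less of these transcripts per cell cannot be told apart.

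Of the clustered histone genes, 8 of 40 were called higher (20%, against 2.43% of all genes) and 1 lower (2.5%, against 1.23%). The median was 0.10, and the fall was that of HIST1H4C. HIST1H1C, a linker histone, read 11.45 and 10.76 against 12.25 and 11.64 and rose by 0.84 ± 0.08, the groups being apart although the replicates differed by more than 0.6. HIST2H2AA3 and HIST2H2AA4, near-identical H2A copies, rose by 0.66 ± 0.08 and 0.65 ± 0.09, HIST1H4H by 0.49 ± 0.09 and HIST1H2BK by 0.45 ± 0.08. The rises and the fall of HIST1H4C were each seen in both pairs.

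The enzymes on which 5-Aza-CdR acts, or which act on it, showed no called difference, where the smallest difference called for any gene was 0.31. DNMT1, the maintenance methyltransferase, read 13.22 and 12.93 against 13.17 and 12.91 (difference -0.04 ± 0.08). DNMT3A differed by -0.08 ± 0.10, DNMT3B by -0.01 ± 0.08 and UHRF1, which guides DNMT1 to hemimethylated DNA, by -0.20 ± 0.08. TET1, a dioxygenase that oxidises methylcytosine, read 9.36 and 9.25 under the combination and at most 9.59 under 5-Aza-CdR (-0.24 ± 0.09, adjusted p = 0.15 in limma), with groups apart but the test not passed, and TET3 differed by -0.05 ± 0.09. DCK, which phosphorylates decitabine to its active form, differed by 0.01 ± 0.10 and CDA, which deaminates it, by -0.06 ± 0.08. TET2 and SLC23A1 were not measured here. Of 24 DNA methylation enzymes and readers 0 were called in limma (median -0.04), against 3.66% of all genes. Of 22 genes of decitabine uptake and metabolism 3 were lower and 0 higher (median -0.05): TYMS, RRM2 and CTPS, the CTP synthase, at -0.44 ± 0.08. Of 42 histone-based silencing genes 2 were called lower, AOF2 (LSD1, a histone demethylase) at -0.47 ± 0.08 and CBX1, a heterochromatin protein, at -0.31 ± 0.08 with an adjusted p = 0.050 in limma. JMJD8 rose by 0.49 ± 0.08 as the 1 called of 26 JmjC genes.

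**Figure D4:**
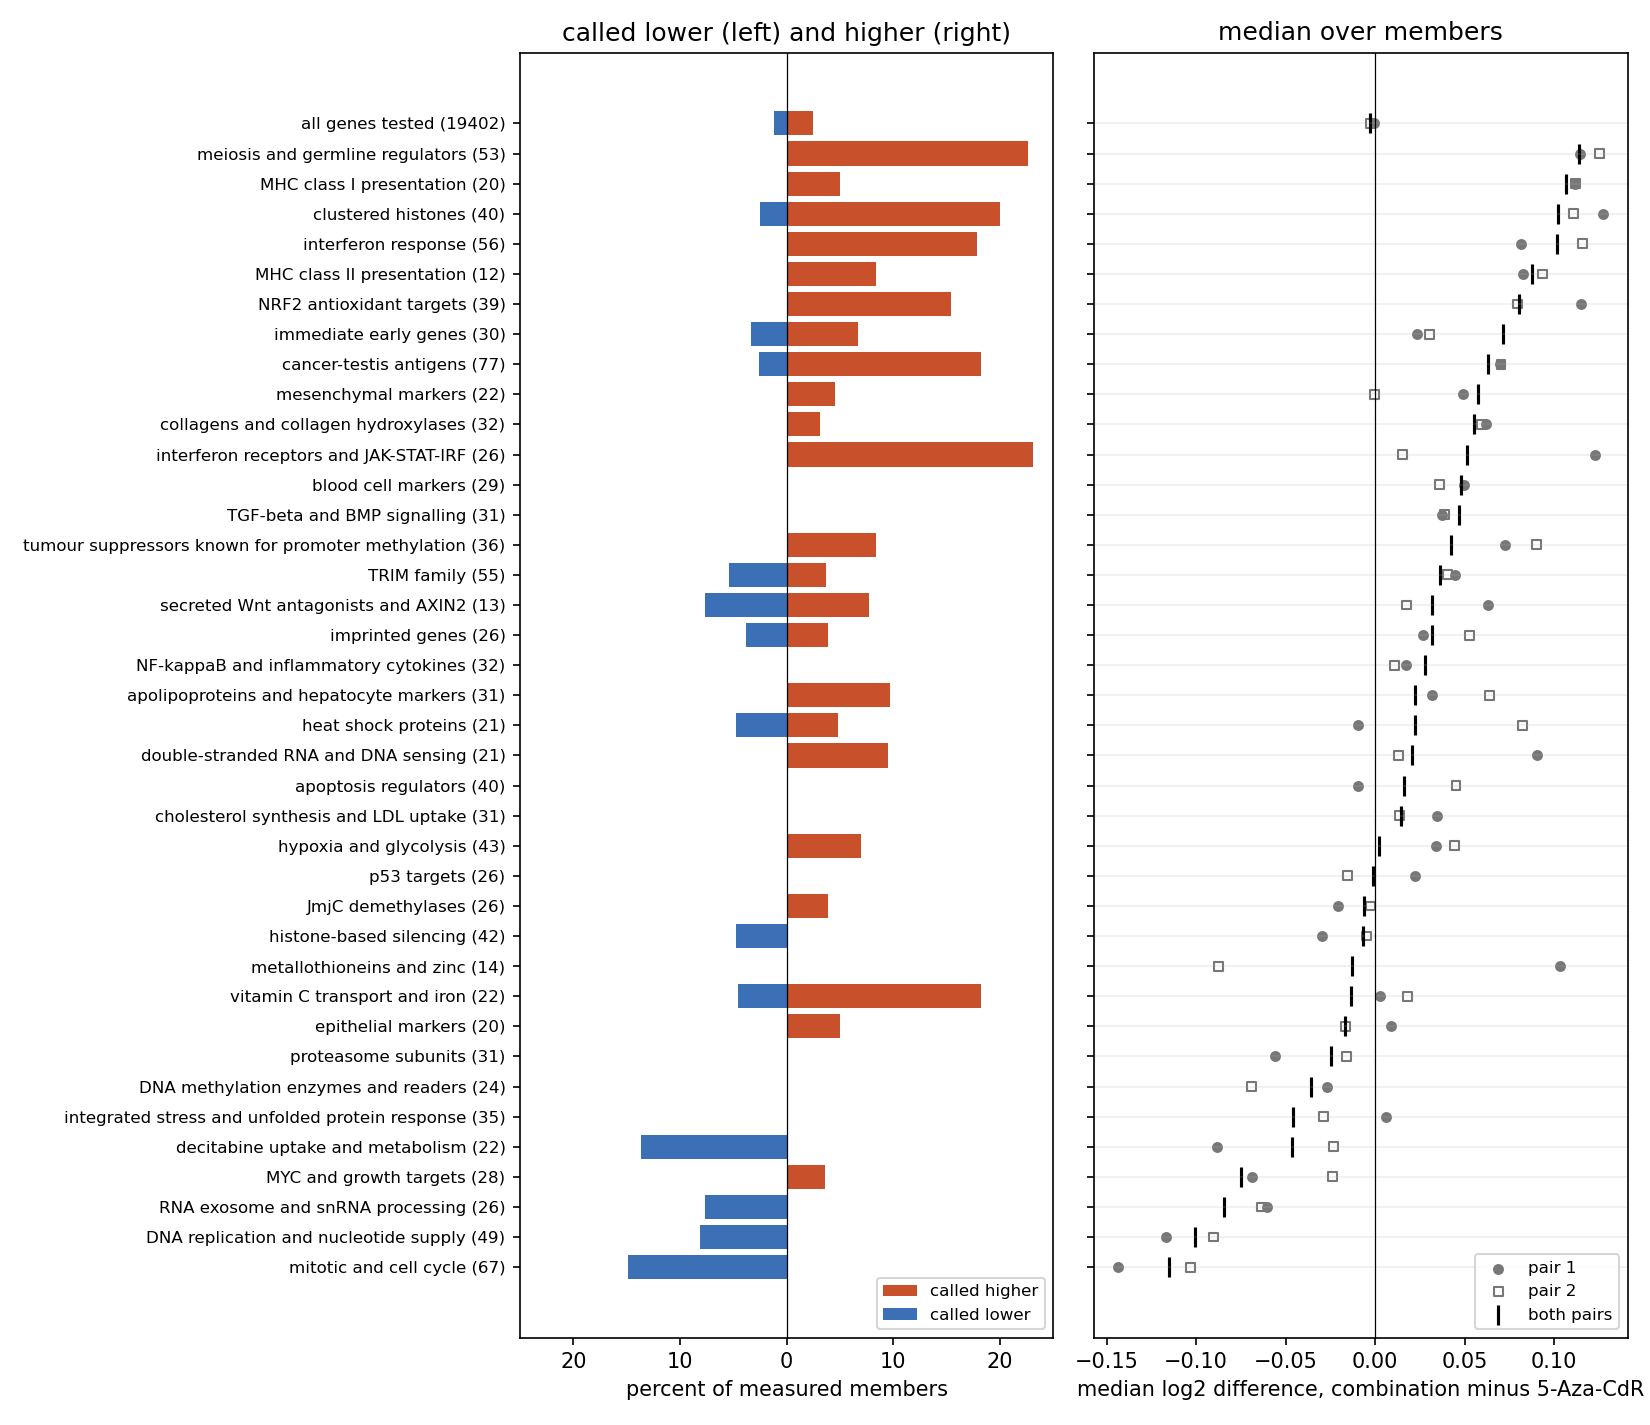
Gene lists (number of measured members in brackets) with, on the left, the percent of members called lower (blue) and higher (red) and, on the right, the median log2 difference of the combination from 5-Aza-CdR alone over members in pair 1 (circles), pair 2 (squares) and both (bars). Germline, interferon and histone lists lie to the right of 0 in both pairs, mitotic and replication lists to the left, and all medians lie within 0.15 of 0.

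Genes called higher included groups of related genes on the sex chromosomes. On chromosome X 38 of 673 genes were called higher (5.65%) and 4 lower (0.594%), against 394 of 15494 autosomal genes higher (2.54%). Of the 38, 12 belong to the germline lists, and outside those lists 26 of 616 were called higher (4.22%). Those 26 were not free of germline and cancer-testis genes, as they held CT45A6, CT47A7, MAGEA9B and H2AFB2, which the lists lacked. They included neighbouring families, grouped after their values were seen: BEX1 (0.41 ± 0.08), BEX2 (0.49 ± 0.08) and BEXL1 (0.39 ± 0.08) among 6 BEX symbols, ARMCX1 (0.47 ± 0.09) and ARMCX2 among 6 ARMCX symbols, and 2 of 8 TCEAL symbols. BEXL1 is now BEX4, and the other entry of that gene, BEX4, was not called, at 0.29 ± 0.09 (limma adjusted p = 0.075). H2AFB2 rose by 0.73 ± 0.08 beside its near-copy H2AFB1. Of the TSPY copies on chromosome Y, testis genes of germ cell proliferation, 7 of 8 symbols were called higher, by 0.35 to 0.77, and TSPY3 was not, at 0.14 ± 0.14. These copies are almost identical, so their values are not separate measurements. GAGE genes, an X-linked cancer-testis family, showed 0 of 14 called in limma (median -0.01), and 10 of the 14 read above 13 in every sample, where the highest value of any gene in a sample was 15.96 to 16.01. The shares by chromosome describe these samples and carry no test, because neighbouring and duplicated genes are not independent.

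More genes were called between replicates than between treatments. Replicate 2 minus replicate 1, the other coefficient of the paired fit, was called for 6691 of 19402 genes in limma (34.5%), 3004 higher (15.5%) and 3687 lower (19%) in replicate 2. EIF3CL, a translation factor subunit copy, read 8.62 and 8.48 in the replicate 1 samples and 11.15 and 10.76 in the replicate 2 samples. PXDN, a peroxidase of basement membranes, read 11.69 and 10.95 in replicate 1 and 9.29 and 9.74 in replicate 2, the largest fall. SEMA3E, a secreted guidance cue, was higher in replicate 2 by 1.73 ± 0.09 and TUBB3, a neuronal tubulin, lower by 1.33. Of the genes called for treatment, 253 of the 472 higher and 149 of the 238 lower were also called between replicates, which touches for example STAT2, TYK2 and PRIC285 above. What sets the replicates apart is not stated in the labels and was not tested.

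The leading genes were set beside the same contrast in the other lines, whose pairs share no sample with SNU398. Against HL60, where the pairs agreed less (r of 0.083 across genes), limma called 0 of 19402 differences between lines (879 at an unadjusted p under 0.05, lowest adjusted p = 0.80). Against HCT116 it called 1 of 12349 (0.0081%, 1326 at an unadjusted p under 0.05), ISOC1, which was not called in SNU398 (-0.25 ± 0.08) and differed by 1.43 and 1.12 in the HCT116 pairs. This count became 0 without weights per line, with the filter at mean log2 9 or without the replicate block, and 4 after centring on the median. REC8 differed by 0.24 and -0.07 in the HCT116 pairs and by 0.05 and -0.07 in the HL60 pairs. The difference of SNU398 from HCT116 was 1.33 ± 0.23 for REC8 and -1.36 ± 0.22 for SPRYD5, both with an adjusted p = 0.056 in limma. Neither passed the threshold, so the effect was not shown to be particular to SNU398. MX1 differed by 1.44 and 1.45 and IFI27 by 0.86 and 1.13 in the HCT116 pairs, against 0.44 and 0.40 and 0.06 and -0.10 in HL60. Other interferon genes varied in the HL60 pairs: IFIT2 differed by 1.21 and 1.17 and IFIH1 by 1.07 and 1.05, but ISG15 by -0.07 and -0.30. OAS1, flat in SNU398, differed by 1.61 and 1.12 in HCT116 (SNU398 minus HCT116 -1.35 ± 0.23, adjusted p = 0.056).

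Some SNU398 genes were at low signal elsewhere. TRIM48 read 7.78 to 8.24 in HL60 and 8.03 to 8.12 in HCT116 replicate 1, against 9.28 to 11.24 in SNU398. SFRP1 read 7.71 to 7.76 in HL60. A fall of these genes could thus not be seen in HL60 at this signal. Of the 472 genes called higher in SNU398, 215 were higher in both HL60 pairs, against 5437 of all 19402 genes, and their median difference in HL60 was 0.08 against 0.02 over all genes. In HCT116, 111 of the 375 measured were higher in both pairs, against 3709 of 12349, and the median was 0.05 against 0.03. Of the 238 genes called lower, 54 were lower in both HL60 pairs, against 4618 of all 19402 genes, and their median difference in HL60 was 0.06. In HCT116, 24 of the 182 measured were lower in both pairs, against 3264 of 12349, and the median was 0.14, above 0.

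**Figure D5:**
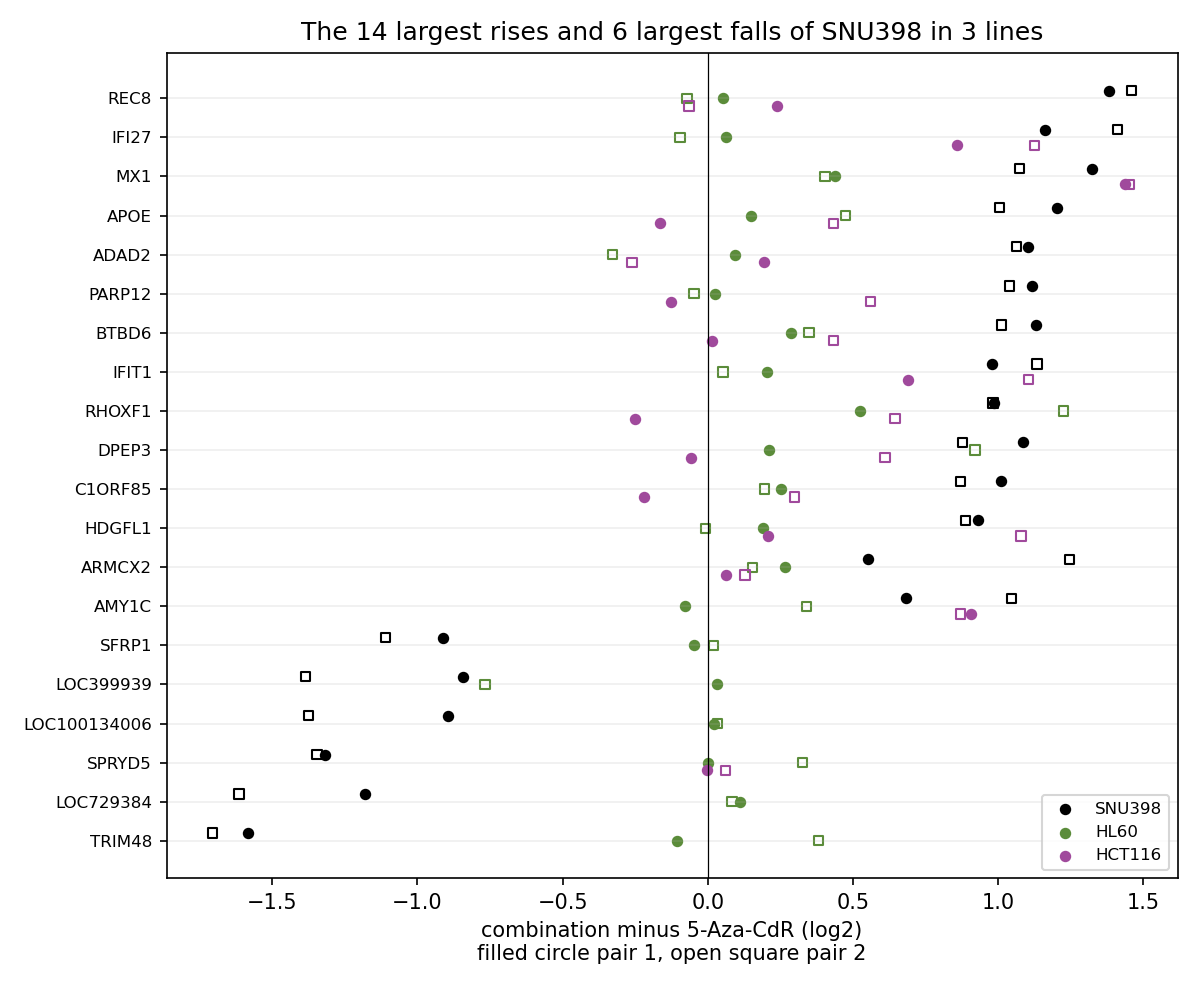
Difference of the combination from 5-Aza-CdR alone (log2, horizontal axis) in each pair of SNU398 (black), HL60 (green) and HCT116 (purple) for the 14 genes that rose most and the 6 that fell most in SNU398, with filled circles for pair 1 and open squares for pair 2. MX1, IFI27 and IFIT1 lie above 0.6 in all SNU398 and HCT116 pairs, while REC8 lies at 1.38 and 1.46 in SNU398 and within 0.24 of 0 in the other lines, without the difference between lines passing its test.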

How the data were processed

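Total RNA was extracted with Trizol and a column kit and turned into biotinylated cRNA for Illumina bead arrays, per the labels' protocols. The log2 values per gene symbol were used as the authors deposited them; the unit was read from the values. The submitters' processing notes name limma, and neither its version nor the background correction, normalization and choice of probe per gene is given in the sources used here. Median log2 lay between 8.53 and 8.57 in the 4 SNU398 samples, and the number of arrays limits the precision. Zeros in HCT116 were treated as not measured, and a table of 44 columns for 11 arrays, whose names match no label, was not used.

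limma 3.58.1 in R 4.3.3 (lmFit, eBayes, two-sided) was fitted to the 4 SNU398 samples with treatment and replicate number, with Benjamini-Hochberg adjustment over 19402 genes and calls at an adjusted p under 0.05. Same-numbered samples deviated together from their group means (r of 0.841 in SNU398, 0.883 in HL60 and 0.907 in HCT116, all over 0.1), so the numbers were taken to pair them. Differences between lines were fitted to the pair differences with a weight per line, and the script was tested on simulated data. The members, gene lists and rules were chosen with earlier results of these data known; of 1377 list symbols 1195 were found. The text names the 20 largest rises and falls without overlap, up to 8 called genes per list, fixed genes and markers, the 10 smallest p per line difference and the 10 largest per direction between replicates; some genes that this rule takes are not reported here. Current symbols and promoters came from RefSeq (GRCh38.p14), where 16194 of 19402 symbols matched; promoters of chromosome 8 were not used here. Alternatives were no block, other samples in the fit, quantile normalization, median centring, trend with robust moderation, a filter at a mean log2 of 9, and leaving out each sample or pair.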

Additional observations from a re-analysis of the deposited data

Results flagged for a closer look

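ISOC1, which encodes an isochorismatase domain protein, was the 1 gene called in the test of the difference in response between SNU398 and HCT116. SNU398 minus HCT116 was -1.52 ± 0.23 (limma adjusted p = 0.046). In SNU398 the gene read 11.27 and 11.90 under 5-Aza-CdR and 10.97 and 11.70 under the combination, and in HCT116 it read 10.33 and 7.56 against 11.75 and 8.68. The call did not hold under all alternatives: limma called 0 differences between these lines without weights per line (lowest adjusted p = 0.42), 0 with the filter at mean log2 9 (0.16), 0 without the replicate block (1) and 4 after centring on the median. No test for a single outlying sample was made in SNU398, because each group held 2 samples.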

How the results depend on the processing

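The 710 calls became 686 with quantile normalization (684 shared), 674 after centring on the median (674 shared), 761 with trend and robust moderation (625 shared) and 648 of the 7841 genes left by a filter at mean log2 9 (497 shared). Without the replicate block limma called 0 on the 4 samples (388 at an unadjusted p under 0.05) and 0 over all 12 samples (32), and with the block over 6 pairs of 3 lines 0 (429). Fits that left out 1 sample had no replicate block, and fits that left out a pair shared the spread of the 3 lines. Both models called 0 with nothing left out, so their calls cannot show dependence on 1 sample or pair. The rule of at least 2-fold in both pairs, added after seeing the data, gave 10. The difference from HL60 gave 0 under every alternative run. That from HCT116 gave 0 without weights, 0 with the filter, 0 without the replicate block and 4 after centring. Of 128 named called genes, 126 kept their call with quantile normalization, 122 after centring, 111 with trend and robust moderation and all 90 that passed the filter. Dropping the block or pooling the 3 lines ended the calls of all 128. Leaving out 1 sample turned the sign of 10 of them. STAT2 gave -0.036 and -0.02 without Combination replicate 1 and 5-Aza-CdR replicate 2 (range 0.72 to -0.036 over all samples and pairs left out), TYK2 -0.06 and -0.12 (0.79 to -0.12), CBX1 0.14 and 0.07 (-0.77 to 0.14), MXD4 -0.14 and -0.06 (0.85 to -0.14), SPINT2 -0.29 and -0.15 (0.99 to -0.29), DUSP6 0.27 and 0.24 (-0.99 to 0.27), TRIM8 -0.00 and -0.12 (0.80 to -0.12) and LOC644063 0.49 and 0.47 (-1.35 to 0.49). NOTUM gave -0.24 and -0.36 without 5-Aza-CdR replicate 1 and Combination replicate 2 (1.05 to -0.36), and HSPE1 0.050 without 5-Aza-CdR replicate 1 (-0.72 to 0.050). These genes differed between replicates, and such a fit compares samples of unlike number. Low signal and 2 pairs limit what could be called.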

Other observations

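Several gene groups showed few calls, set beside 3.66% of all genes called in either direction. Of 43 hypoxia and glycolysis genes 3 were higher: ALDOC, a glycolytic aldolase (0.48 ± 0.08), DDIT4, an inhibitor of mTOR signalling (0.43 ± 0.09), and SLC16A3, the lactate exporter (0.39 ± 0.08), with a list median of 0.00. Of 26 imprinted genes, the maternally expressed noncoding RNA MEG3 rose by 0.39 ± 0.08 and the paternally expressed MKRN3 fell by 0.41. MEG3 read 7.87 and 7.60 under 5-Aza-CdR, in the range of lowest signal, so the size of its rise is uncertain. Of 30 immediate early genes, CTGF, a matricellular protein, rose by 0.43 ± 0.08 and the nuclear receptor NR4A2 by 0.33 ± 0.08, while DUSP6, a phosphatase of ERK, fell by 0.36. Among heat shock proteins HSPB1 rose by 0.34 ± 0.08 and HSPE1 fell by 0.34.

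limma called 0 of 26 p53 targets, 0 of 35 integrated stress and unfolded protein response genes, 0 of 31 cholesterol synthesis genes, 0 of 40 apoptosis regulators, 0 of 31 TGF-beta and BMP genes, 0 of 31 proteasome subunits and 0 of 29 blood cell markers, with list medians between -0.05 and 0.05. With 3.66% of all genes called, 0 calls in lists of this size is near that share. Of the 29 blood cell markers 21 were among the 4851 genes of lowest signal, where calls were rare. PLOD1, a collagen lysyl hydroxylase that uses ascorbate, rose by 0.38 ± 0.08 as the 1 called of 32 collagen genes.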
